A study of Caenorhabditis elegans with 4 samples.

Results

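The combined peak list placed 349 of its 2237 peaks on chromosome IV of Caenorhabditis elegans, and these 349 peaks are the subject here. They were chosen by chromosome name, a rule that uses no measured value, though chromosome IV was picked with earlier results of these lists known. The peaks mark places where F23F12.9, the protein of the gene zip-8, was recovered with chromatin in a ChIP-seq experiment on embryos. In ChIP-seq, chromatin fixed with formaldehyde is sheared, the fragments bound to 1 protein are collected with an antibody and sequenced, and peaks are the intervals where those reads pile up.

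Both groups, 2 ChIP samples and 2 input samples, came from strain OP327 grown at 20 °C and harvested as embryos from a mixed population of males and hermaphrodites. The labelled genotype joins unc327(ed3) to wgIs102, an insertion of F23F12. with TY1, EGFP and FLAG tags and unc119. The strain note names the bombarded background unc-119(ed3) instead. The carried F23F12.9 transgene, tagged with GFP::3xFlag, was delivered by bombardment, and the strain was not outcrossed. It is a single strain and no untagged strain is among the samples, so binding of the antibody to anything but the tagged protein was not measured. The input samples had no peak list of their own here. The titles number the replicates without saying whether they came from separate cultures.

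ZIP-8 belongs by name to the basic leucine zipper (bZIP) proteins, which pair through a zipper of leucines and contact DNA through a neighbouring stretch of basic residues. The zip-8 gene itself lies on chromosome III, so the chromosome IV peaks do not include its own locus. Worm autosomes have a centre that is dense in conserved genes and recombines little, between 2 arms that are richer in repeats and recombine more. Chromosome IV is further known for carrying most of the worm's piRNA (21U-RNA) genes, in broad clusters. No genome or annotation of the build of these lists, WormBase WS220, was used here. Peaks are therefore given by position, with no gene or sequence, and whether any of them lies at a piRNA cluster was not tested.

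The comparison used 3 lists: the combined list, and the lists of ChIP replicates 1 and 2, which held 3503 and 2235 peaks on chromosome IV. Peaks are ordered by the number in their name, where number 1 comes first in the list. The headers do not call it a rank. Across all peaks of each replicate list the deposited score falls as the number rises (Spearman rho −0.99 in each). The highest score, however, is shared by peaks 1 to 4605 of replicate 1 and by peaks 1 to 2598 of replicate 2. The first 2237 nuclear peaks of each, used below, therefore have 1 score, and their order rests on the number alone. The combined list gives all of its peaks 1 score, 3.85. The span of 17.49 Mb, which ends at the last peak found in any of the lists, was cut into 3 equal parts, called the left arm, the centre and the right arm here. These borders are by length and not by recombination rate. Read depth is unknown, since the lists hold no counts, and all intervals below are 95% Wilson intervals that cover counting error only.

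The 10 chromosome IV peaks with the lowest combined numbers were spread over both arms and the centre, and each overlapped a peak in both replicate lists. The first lay in the right arm at 12689291 to 12689662, as combined number 6, with number 6 in replicate 1 and number 7 in replicate 2. The next 2 lay in the left arm. They were number 8 at 4673338 to 4673689, which was number 10 in replicate 1 and 16 in replicate 2, and number 9 at 4167291 to 4167684, which was number 11 and number 12. These 3 kept nearly the same place in all 3 lists.

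Numbers 16 and 17 were again in the right arm, at 16776910 to 16777270 and at 16503833 to 16504174. Their replicate 1 numbers were 9 and 22, and their replicate 2 numbers were 48 and 21. Number 25 followed in the left arm at 3502362 to 3502734, as number 17 in replicate 1 and 109 in replicate 2. The centre's leading peak came only then, as number 34 at 10777616 to 10777947, with numbers 28 and 127 in the replicates. It thus stood much later in replicate 2 than in the other 2 lists.

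The last 3 of these 10 were number 45 at 1868255 to 1868573 (left arm, replicate numbers 64 and 56), number 46 at 7012220 to 7012539 (centre, replicate numbers 46 and 130) and number 51 at 16388817 to 16389289 (right arm, replicate numbers 60 and 67). Of the 10 peaks, 4 were in the left arm, 2 in the centre and 4 in the right arm. All 10 were narrower than 480 bp, the list's most common width, and measured 319 to 473 bp.

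Combined peaks were thinnest in the middle of chromosome IV. The left arm (1 to 5829864) held 138 peaks, the centre (5829865 to 11659727) held 85, and the right arm (11659728 to 17489591) held 126. These counts are 23.7, 14.6 and 21.6 peaks per Mb, so the centre had 0.62 times the density of the left arm and 0.67 times that of the right.

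The centre held 24.4% of the chromosome's peaks (85 of 349; interval 20.1 to 29.1%), where an even spread would put 33.3%. This was lower than expected (two-sided exact binomial test, adjusted p = 0.0060 over the 18 such parts of the 6 nuclear chromosomes). Of those 18 parts, 11.1% passed the threshold of 0.05: the centre of IV, which was low, and the left arm of I, which was high at 41.0%. The left arm of IV, at 39.5% (interval 34.6 to 44.8%), and the right arm, at 36.1% (interval 31.2 to 41.3%), did not pass (exact binomial test, adjusted p = 0.088 and 0.72). Without replicate 1, in the first 2237 nuclear peaks of replicate 2, the left arm held 40.9% and passed (exact binomial test, adjusted p = 0.034).

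**Figure D1:**
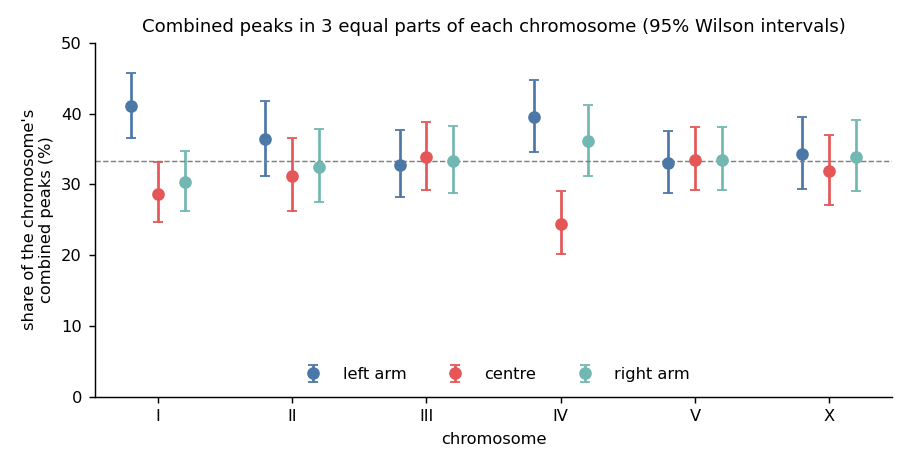
Share of each chromosome's combined peaks (vertical axis, %) in its left arm, centre and right arm, for the 6 nuclear chromosomes. Points are shares, bars are 95% Wilson intervals, and the dashed line is the 33.3% of an even spread; the centre of IV is the lowest point, at 24.4%.

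The centre of IV was then set directly against the centres of the other chromosomes, a comparison chosen after the shares were seen. On the other 5 chromosomes 600 of 1888 peaks (31.8%) were in the centre, 7.42 percentage points more than on IV. The difference passed the threshold (two-sided Fisher's exact test, adjusted p = 0.032 over the 6 chromosomes), and IV was the only chromosome of the 6 (16.7%) to pass. The shares of the other centres ran from 28.7% on I to 33.9% on III.

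The call depended on where the arms were taken to end and on the length of the list. With the outer 25% at each end as arms, the middle 50% of IV held 45.3%, and the call was lost (exact binomial test, adjusted p = 0.31). In the better-ordered 50% of the combined list the share was much the same, 23.4%, but 171 peaks did not pass (exact binomial test, adjusted p = 0.076). Both the binomial and Fisher's exact tests take peaks as independent of one another. Counts in full 1 Mb bins had a variance 2.04 times their mean on IV, which includes any difference between centre and arms. On the other chromosomes it ran from 0.73 times on II to 3.16 times on I, and was 2.36 times with their bins pooled. The p-values are therefore likely too small, the adjusted p = 0.032 of Fisher's exact test above included, by an amount that was not measured.

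A difference between the arms did not pass the test. Of the 264 peaks on the arms, 52.3% were on the left (interval 46.3 to 58.2%; two-sided exact binomial test, adjusted p = 0.997 over 6 chromosomes). No chromosome passed in this comparison (0%), and at an unadjusted p under 0.05 there was 1, chromosome I. The interval allows the left arm to hold anything from slightly fewer peaks than the right to clearly more.

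In 1 Mb bins the combined peaks of IV ranged from 10 to 31, with a median of 20 over the 17 full bins. The bins of the other chromosomes ranged from 9 to 55, with a median of 22. The fullest bins of IV were the 3rd (2000001 to 3000000) with 31 peaks, the first (1 to 1000000) with 30 and the 13th (12000001 to 13000000) with 29. They lay on both arms. The emptiest were the 11th (10000001 to 11000000) with 10, and the second and 12th with 13 each.

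The second bin, 1000001 to 2000000, lay between the 2 fullest ones. It held 13 combined peaks, with 30 in the bin before it and 31 in the bin after it. In the replicate lists the same 3 bins held 240, 224 and 208 peaks in replicate 1 and 157, 146 and 145 in replicate 2. The drop in this bin was therefore seen in the combined list and had no like drop in either replicate list.

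The centre of IV was then compared with its arms bin by bin in all 3 lists. Within the centre lay 5 full bins, with 10 to 23 combined peaks (median 15). Within the arms lay 10 full bins, with 13 to 31 (median 22.5), and 2 bins crossed a border. Of the 10 arm bins, 5 held more combined peaks than every centre bin, so the ranges overlapped.

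In replicate 2 the centre bins held 97 to 115 peaks and the arm bins 124 to 158, with no overlap. In replicate 1 they held 161 to 202 and 184 to 240, and 7 of the 10 arm bins exceeded every centre bin. Across the whole replicate lists the centre of IV held 30.8% of the 3503 peaks of replicate 1 and 28.6% of the 2235 of replicate 2. In replicate 1 the centres of the other 5 chromosomes were as low, at 30.6 to 31.6%, so the share on IV was within their range. In replicate 2 they held 29.4% (III) to 33.6% (V), all above IV, and this difference was not tested. Combined peaks per replicate 1 peak were fewest in the centre of IV: 7.88%, against 11.0% in the left arm and 10.8% in the right. Per replicate 2 peak the values were 13.3%, 16.1% and 17.1%.

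**Figure D2:**
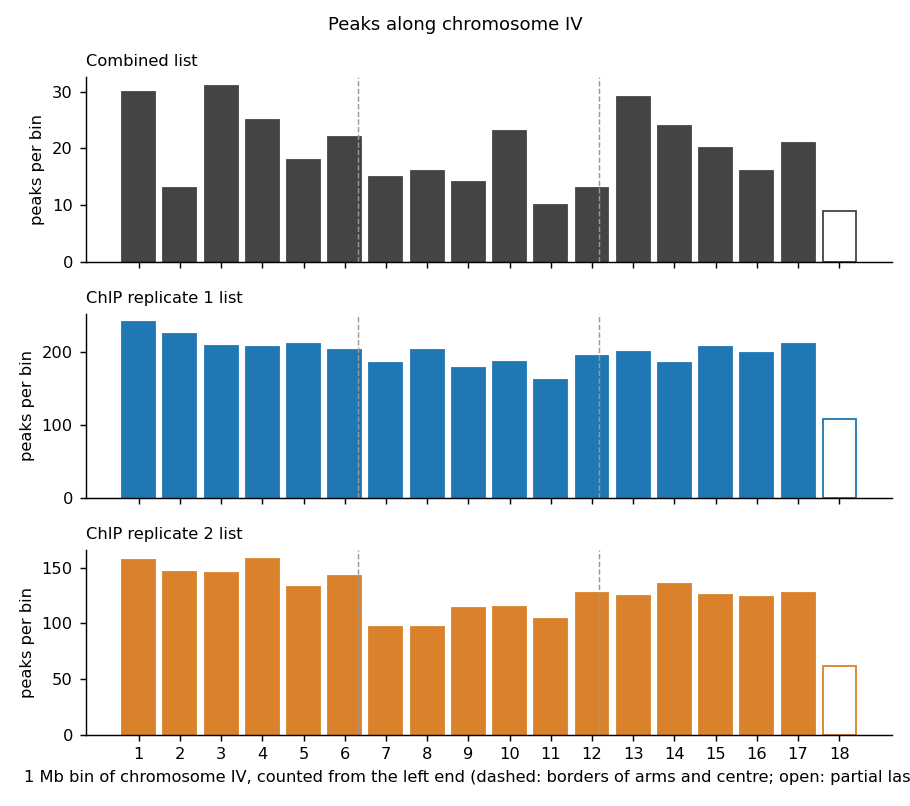
Number of peaks (vertical axis) in each 1 Mb bin of chromosome IV, counted from the left end, for the combined list and both replicate lists; dashed lines are the borders of the centre and the open bar is the partial last bin. The second bin, with 13 combined peaks between bins of 30 and 31, stands level with its neighbours in both whole replicate lists.

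Counts per bin rose together in part across lists. Over the 17 full bins, Spearman rho was 0.39 between the combined and replicate 1 counts, 0.52 between combined and replicate 2, and 0.68 between the replicates. The bins are neighbours on 1 chromosome and the combined list comes from the same experiment as the replicates, so these values only describe the lists. The variance of the counts over bins was 2.04 times their mean in the combined list, 1.65 times in replicate 1 and 2.71 times in replicate 2. Independent placement gives a variance near the mean, and the excess over it was not tested in any list.

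Overlapping intervals were joined into distinct regions to measure spacing, which gave 345 regions on IV. Only 4 of these joined more than 1 peak, each of them 2 peaks, and all 4 lay in the right arm. They began at 13475070, 13963151, 14076941 and 15019015 and were 560 to 725 bp long. The regions covered 141963 bp, or 0.81% of the span of IV, where those of the other 5 chromosomes covered 0.89% of theirs. That pooled value joins 1.10% on I and 1.01% on III to 0.82% on II, 0.81% on V and 0.75% on X.

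The median distance from 1 region to the next was 27.5 kb on IV, with quartiles of 9.34 and 68.8 kb. On the other 5 chromosomes the median was 28.3 kb, with quartiles of 9.46 and 60.7 kb. Within IV the median was 23.1 kb in the left arm, 54.5 kb in the centre and 26.6 kb in the right arm. The median was thus longer in the centre, which also had the lowest density, than on either arm.

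The longest peak-free stretch of the nuclear chromosomes lay on IV. It ran over 455 kb, from 792386 to 1247811 in the left arm, between combined peaks 774 and 775. The next longest, 365 kb from 15614525 to 15979567, was in the right arm of IV. Then came one on X (345 kb) and again one on IV, 286 kb from 5685062 to 5971421. The next 2 on IV were both in the centre, 273 kb from 9918378 to 10190946 and 234 kb from 6551916 to 6786260.

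These stretches were free of combined peaks but not of peaks of the whole replicate lists. Those lists are far longer, at 20902 and 13801 peaks against 2237. The 455 kb stretch held 103 replicate 1 peaks and 61 replicate 2 peaks, or 226 and 134 per Mb. These densities were slightly above those of the whole of IV, 200.3 and 127.8 per Mb. Of its 103 replicate 1 peaks, 25 overlapped a replicate 2 peak (24.3%). Among all 3137 replicate 1 peaks of IV that overlapped no combined peak, 533 were shared (17.0%), so the stretch held no smaller share than like peaks. The lowest numbers inside it were 1880 in replicate 1 and 1403 in replicate 2. Both are within the first 2237, but no earlier peak of either list lay wholly inside.

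The 365 kb stretch held 68 and 38 replicate peaks, or 186 and 104 per Mb, and 6 of the 68 were shared (8.82%). In the 286 kb stretch 10 of 53 were shared (18.9%). In those of 273 and 234 kb, 3 of 40 and 2 of 35 were shared. Beside the 17.0%, the shares were higher in the stretches of 455 and 286 kb and lower in the other 3. In the stretches of 365, 286, 273 and 234 kb the lowest replicate 1 numbers were 2141, 1692, 2353 and 3917. The lowest replicate 2 numbers there were 1890, 1195, 1483 and 1813. No test was made of these stretches, which were picked for their length.

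**Figure D3:**
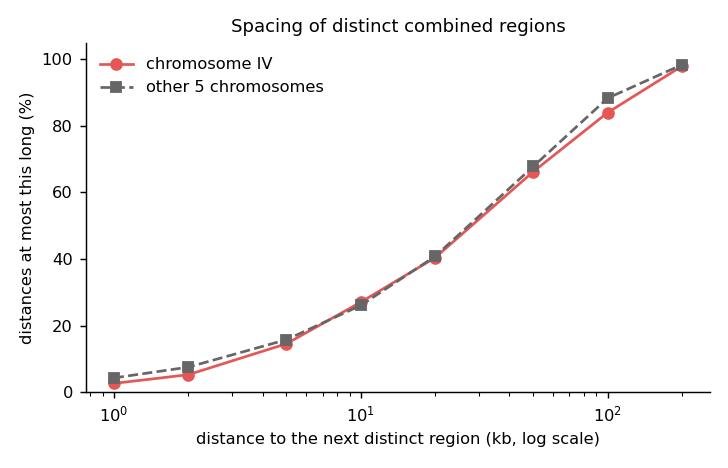
Cumulative share (vertical axis, %) of distances between neighbouring distinct regions up to 1, 2, 5, 10, 20, 50, 100 and 200 kb (horizontal axis, log scale), for chromosome IV and for the other 5 chromosomes. At 50 kb the curves stand at 66.3 and 67.8%, and 7 distances on IV exceed 200 kb.

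Distances of at most 1, 2 and 5 kb were somewhat fewer on IV than on the other 5 chromosomes pooled, but those of at most 10 kb were not. No test was made of each length. Of its 344 distances 2.62% were at most 1 kb and 5.23% at most 2 kb, against 4.26 and 7.50% on the other 5 chromosomes. At most 5 kb were 14.5%, against 15.8% elsewhere. That pooled share holds 79 of 431 distances on I and 63 of 357 on III. On II, V and X, with 44 of 308, 60 of 426 and 46 of 331, the share was level with that on IV. At most 10 kb were 27.0%, against 26.1%, and at most 20 kb 40.4%, against 40.8%. At most 100 kb were 84.0%, against 88.3% elsewhere. Beyond 200 kb were 7 of IV's 344 distances and 30 of the 1853 elsewhere. Of the 345 regions, 89 had another within 5 kb (25.8%; interval 21.5 to 30.7%), against 28.5% of 1858 elsewhere. By chromosome the share was 33.8% on I, 25.9% on II, 31.8% on III, 25.5% on V and 24.4% on X. The difference of −2.73 percentage points between IV and the others did not pass (two-sided Fisher's exact test, adjusted p = 0.38). Of the 6 chromosomes 1, I, did (16.7%). Within IV the share was 25.4% in the left arm, 16.5% in the centre and 32.8% in the right arm, where density was also unequal.

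Regions linked by distances of at most 5 kb formed 39 groups of 2 or more on IV, of which 30 were pairs, 7 held 3 regions and 2 held 4. Both groups of 4 were in the right arm. The tighter, 7.05 kb long at 12545955 to 12553005, held combined peaks 75, 142, 1928 and 2098. The other, 8.96 kb long at 16403365 to 16412326, held peaks 392, 916, 1604 and 1794. All 8 of these peaks overlapped a replicate 2 peak.

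The shortest group of 3, at 12689291 to 12693370, contained the first peak of the chromosome, number 6. Its other members were numbers 1877 and 2076, and 2 of the 3 were found in replicate 2. The closest neighbours on IV were peaks 2198 and 280, with 281 bp between them at 2747518 to 2747798. Next came peaks 1877 and 2076 of the group just described (300 bp) and peaks 75 and 1928 of the tighter group of 4 (363 bp). In each of the groups of 4 and in the group around peak 6, an early peak stood beside much later ones.

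Most peaks of IV had the list's most common width. It was 480 bp for 247 of the 349 (70.8%; interval 65.8 to 75.3%), against 65.5% of 1888 elsewhere. The difference of 5.25 percentage points did not pass (two-sided Fisher's exact test, adjusted p = 0.11), while 33.3% of the 6 chromosomes, I and III, passed with lower shares. No peak of IV was wider than 480 bp, nor was any on V or X, and the 8 wider peaks of the list were on I, II and III. Among the peaks tied at 480 bp, those with the lowest numbers were number 416 at 4506177 to 4506656, number 434 at 13941900 to 13942379 and number 451 at 415626 to 416105.

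The narrowest peaks were 120 bp wide, the lowest width in the list on every chromosome. Those with the lowest numbers were number 562 at 13441822 to 13441941, number 619 at 13508142 to 13508261 and number 688 at 6551796 to 6551915. The last of these ends where the 234 kb peak-free stretch begins.

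Width followed the order. In the first 25% of the combined order, numbers 1 to 559, 5 of the 84 peaks on IV were 480 bp wide and the median was 263 bp. In the next 25% 64 of 87 were (73.6%), and in the last 50% all 178 were. The other 5 chromosomes went from 5.26% through 63.1 and 94.7% to 99.6%. The order was used here only to sort peaks, and how peak calling set the widths is not stated in the sources used here.

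The peaks of IV were found throughout the combined order. Their median number was 1129 (quartiles 570 and 1704), against 1114.5 elsewhere (quartiles 556.75 and 1675.25). In the better-ordered 50%, the first 1118 numbers, lay 171 of the 349 (49.0%; interval 43.8 to 54.2%), against 50.2% elsewhere (two-sided Fisher's exact test, adjusted p = 0.73). No chromosome passed (0%), and 1, III, had an unadjusted p under 0.05. IV held 18 of the first 100 numbers, 76 of the first 500 and 150 of the first 1000, near its 15.6% of the whole list.

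Along IV, the left arm held 9 of those 18, the centre 3 and the right arm 6. Median numbers were 1096.5, 1195 and 1125.5, and the shares in the better-ordered 50% were 50.7, 47.1 and 48.4%. By count the centre held 40 of the peaks in the better-ordered 50%, the left arm 70 and the right arm 61. Among its 1 Mb bins the ninth (8000001 to 9000000) began at number 192 and the tenth at number 244, and the 12th, which crosses the border to the right arm, at number 586.

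All 349 peaks of IV overlapped a replicate 1 peak by at least 1 bp, and 298 (85.4%; interval 81.3 to 88.7%) also overlapped a replicate 2 peak. The remaining 51 were found in replicate 1 alone. On the other 5 chromosomes 87.6% of 1888 peaks were found in replicate 2, and the difference of −2.22 percentage points did not pass (two-sided Fisher's exact test, adjusted p = 0.38). No chromosome passed (0%), and none had an unadjusted p under 0.05. With a reciprocal overlap of 50% the share on IV was 61.6% and lay above that of the others. Most replicate 2 peaks are 600 bp wide, and combined peaks under 300 bp cannot meet that rule with them. Such narrow peaks made up 24.1% on IV and 28.8% elsewhere. Whether they account for the turn was not tested.

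Support in replicate 2 was then compared along the chromosome. It was 86.2% in the left arm (interval 79.5 to 91.0%), 83.5% in the centre (interval 74.2 to 89.9%) and 85.7% in the right arm (interval 78.5 to 90.8%). The centre and the arms differed by −2.46 percentage points, 71 of 85 against 227 of 264 (two-sided Fisher's exact test, adjusted p = 0.72). No chromosome passed in this comparison (0%), again with none at an unadjusted p under 0.05. With midpoints within 100 bp the centre, at 80.0%, lay above the arms.

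**Figure D4:**
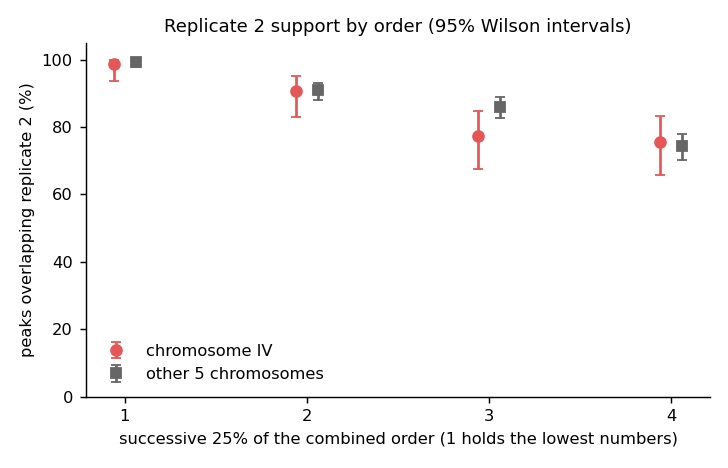
Share of combined peaks that overlap a replicate 2 peak (vertical axis, %) in each successive 25% of the combined order, for chromosome IV and for the other 5 chromosomes, with 95% Wilson intervals. On IV the share goes from 98.8% in the first 25% to 75.6% in the last.

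Support was highest at the head of the list. The combined list and its order come from the same experiment as the replicates, so these shares only describe the lists. In the first 25% of the order 83 of the 84 peaks on IV overlapped replicate 2 (98.8%; interval 93.6 to 99.8%). In the following 3 portions of 25% the shares were 90.8% (interval 82.9 to 95.3%), 77.3% (interval 67.5 to 84.8%) and 75.6% (interval 65.8 to 83.3%). The other 5 chromosomes had 99.2, 90.9, 86.0 and 74.3%. Numbers 1119 to 1677 were where IV lay farthest below the rest, 68 of 88 against 405 of 471, and this was not tested. Peaks narrower than 480 bp, which are mostly early ones, were found in replicate 2 in 100 of 102 cases, and those of 480 bp in 198 of 247.

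The 51 peaks without a replicate 2 partner had a median combined number of 1594, against 1041.5 for the 298 with one, and 42 of them were in the later 50%. The first was number 389 at 12870400 to 12870608, which was number 240 in replicate 1 and lay 3371 bp from the nearest replicate 2 peak. It was also the only one of the first 25% and was narrow, at 209 bp. Number 636 at 7922172 to 7922651 (number 375 in replicate 1) followed, 6403 bp from the nearest replicate 2 peak.

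Then came numbers 824 at 4686273 to 4686752, 838 at 6304621 to 6305100 and 861 at 6106735 to 6107214. Their replicate 1 numbers were 503, 673 and 687, and the nearest replicate 2 peaks were 437, 8323 and 4562 bp away. Of these first 5, 3 lay in the centre, where 71 of all 85 peaks had a partner, against 227 of 264 on the arms. Over all 51 the median distance to a replicate 2 peak was 2318 bp, with 1 under 100 bp and 8 over 5 kb, up to 13408 bp. Most of them were thus not near misses of the 1 bp overlap.

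The order of the IV peaks followed replicate 1 more closely than replicate 2. Across the 349 peaks, Spearman rho between the combined number and the lowest overlapping replicate 1 number was 0.90. Across the 298 found in replicate 2 it was 0.58. Elsewhere these values were 0.87 and 0.55, and peaks within a list do not count as separate replicates. Of the 349, 309 (88.5%) overlapped a replicate 1 peak numbered up to 2237. For replicate 2 this held for 205 (58.7%), and the others had 88.3 and 61.3%.

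**Figure D5:**
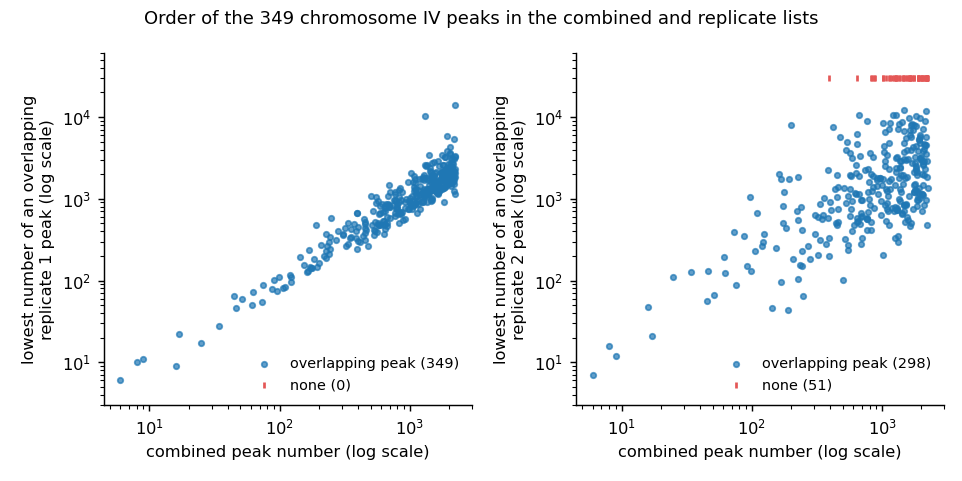
For each of the 349 chromosome IV peaks, the combined number (horizontal axis, log scale) against the lowest number of an overlapping peak in replicate 1 (left panel) or replicate 2 (right panel; vertical axes, log scale); red ticks are peaks with no overlapping peak. Points lie in a narrow band for replicate 1 and scatter widely for replicate 2, where 51 peaks have none.

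Beyond the combined list, the replicates shared further places on IV. Of the 3503 replicate 1 peaks, 842 overlapped a replicate 2 peak (24.0%), and 533 of those 842 (63.3%) overlapped no combined peak. Of the 2235 replicate 2 peaks, 908 overlapped a replicate 1 peak (40.6%), and 562 of those (61.9%) had no combined peak. On the other 5 chromosomes 26.5% of replicate 1 and 41.8% of replicate 2 peaks were shared, of which 61.4 and 59.9% had no combined peak, so IV lay near the general shares. These shares include overlaps by placement alone, whose extent on IV was not measured here.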

How the data were processed

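The 3 deposited lists were 1 for each ChIP sample and 1 named combined. The source column names SPP, a peak caller, and IDR, which keeps peaks that rank alike in replicates; the build is WormBase WS220, per the file headers. Each peak has a deposited score of unstated unit. Versions, thresholds, depth and any pooling of reads for the combined list are not stated in the sources used here. Coordinates are 1-based and inclusive.

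Everything else was computed here from these lists in Python 3.11.15 with scipy 1.17.1, pandas 2.3.3, numpy 2.4.6 and matplotlib 3.10.9. Peaks were assigned to arms, centre and 1 Mb bins by midpoint. Distances are the bases between regions. Tests were run on all 6 nuclear chromosomes and Benjamini-Hochberg adjusted over all of them. The binomial test of the 3 parts and Fisher's exact test of each chromosome against the others were checked on simulated lists. Those lists placed peaks independently, so the check cannot show how the tests behave with the uneven bin counts of these data. The tests compare places along the genome, not a spread between samples. Mitochondrial peaks were left out. Settings varied were the arm borders, the overlap rule, the part of the list, joining within 2 kb, the neighbour distance and each replicate list alone (its first 2237 nuclear peaks). The regions named were the first 10 peaks, the first of each arm and the centre, the widest, narrowest and closest, the longest peak-free stretches, the fullest and emptiest bins, the largest groups and the first peaks without replicate 2. The chromosome, tests and rules were chosen with earlier results of these data known. The symbol zip-8 and its chromosome came from a RefSeq table of WBcel235.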

Additional observations from a re-analysis of the deposited data

How the results depend on the processing

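Of 42 alternatives to the 9 chromosome IV shares tested, 35 kept both the direction and the side of the threshold. Only the share in the centre passed in the main setting, so for the other shares keeping the side meant again not passing. Counting repeated intervals once could not change the peaks of IV, which had 0 such intervals. The share in the centre (24.4%) lost its call with the outer 25% as arms (45.3%, exact binomial test, adjusted p = 0.31, against an even 50%) and in the better-ordered 50% (23.4%, adjusted p = 0.076), where fewer peaks are tested. It passed with regions within 2 kb joined, with either replicate left out and against the other 5 chromosomes. Leaving out 1 replicate at a time, the left share ranged from 38.5 to 40.9% and passed without replicate 1. The share in the better-ordered 50% ranged from 47.8 to 50.9% and turned above the other chromosomes without replicate 2. Directions also turned, with no test passed in either setting, for support in replicate 2 with a reciprocal overlap of 50% (61.6%), a rule that combined peaks under 300 bp cannot meet with replicate 2 peaks of 600 bp, for support in the centre with midpoints within 100 bp (80.0%) and for neighbours at a distance of 10 kb (44.6%). What caused any of these turns was not tested. No paired analysis was possible because the input samples had no lists, so no replicate block could be fitted. Read depth is unknown and bounds every value here by an unknown amount.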
